A study of Mus musculus with 9 samples.

Results

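Perigonadal white fat of mice homozygous for G609G was set directly against that of mice homozygous for LCS, both aged 4 months. Per the labels, RNA came from snap-frozen, powdered tissue and was hybridised to arrays that give 1 log2 signal per probe set. The contrast used the 3 arrays titled G609G/G609G and the 3 titled LCS/LCS, which are 6 of the 9 arrays analysed here. The 3 wt arrays gave the level in fat with no mutant allele and entered the estimate of the spread. No treatment is stated for any genotype. The table held 23332 probe sets, and the 14860 genes paired with a single symbol are described.

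Lmna encodes lamins A and C, intermediate filament proteins that line the inner face of the nuclear envelope. G609G is known as a splice mutation of Lmna that makes progerin, a shortened lamin A that keeps its farnesyl anchor, and it models Hutchinson-Gilford progeria. LCS is not spelled out in the labels. It is known as an Lmna allele that makes lamin C and neither lamin A nor progerin. Perigonadal fat stores triglyceride and secretes leptin and other adipokines, and in males it lies against the epididymis and testis. The direct contrast asks how fat that makes progerin differs from fat that makes lamin C without lamin A or progerin.

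Among called genes, most log2 differences of at least 1 as deposited ran downwards in G609G/G609G fat, while those of at least 4 ran more often upwards. Called genes were those with a limma adjusted p of 0.05 or less. As deposited, 1673 genes (11.3%) were higher and 7588 (51.1%) were lower in G609G/G609G than in LCS/LCS. After quantile normalization, which gives all arrays 1 distribution, 4131 (27.8%) were higher and 4391 (29.5%) were lower. The array medians were 5.94, 5.95 and 6.01 for G609G/G609G, against 6.37, 6.31 and 6.34 for LCS/LCS and 6.36, 6.37 and 6.45 for wt. The median log2 difference over genes was therefore -0.26 as deposited, 0 after quantile normalization and 0.12 after centring each array on its median. A gene is written as risen or fallen below only where it was called in the same direction under all 3 scalings, which held for 1613 genes upwards (10.9%) and 3900 downwards (26.2%). Among these, 423 rose and 2143 fell by a log2 difference of at least 1 as deposited. Of genes past a difference of at least 4, 48 rose and 36 fell. Counts of list members that rose or fell are to be read against the 10.9% and 26.2% of all genes. The distribution of all differences shows the shift between the scalings.

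**Figure D1:**
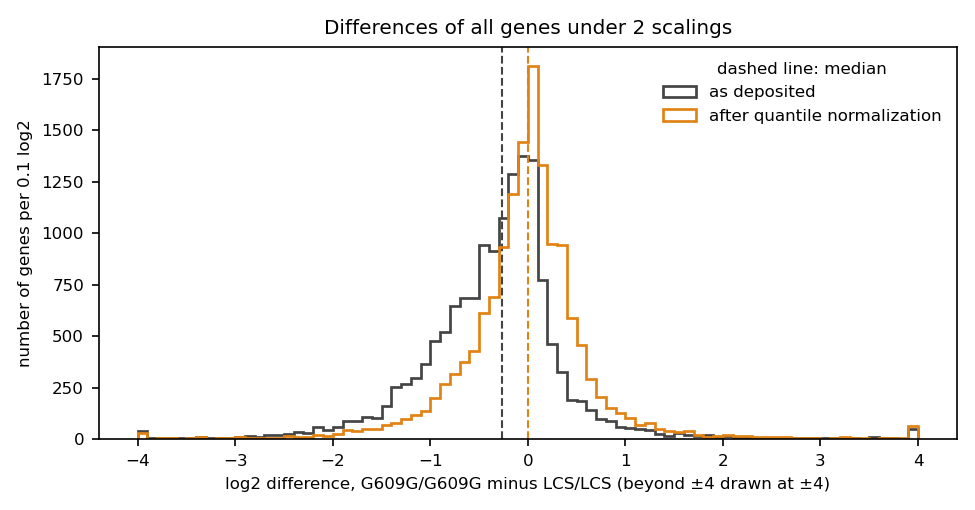
Number of genes (vertical axis) by log2 difference, G609G/G609G minus LCS/LCS (horizontal axis, bins of 0.1), for 14860 genes as deposited and after quantile normalization. Dashed lines mark the medians, which lie at -0.26 as deposited and at 0 after quantile normalization.

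The shift between scalings was absent in the dimmest 25% of genes by mean signal, where the median difference was 0.04 both as deposited and after quantile normalization. In the next 3 such groups, from dim to bright, it was -0.29, -0.56 and -0.50 as deposited, and -0.03 in each after quantile normalization. Correlations over all probe sets were 0.939 to 0.943 between G609G/G609G and LCS/LCS arrays. Replicate arrays correlated at 0.986 to 0.991 within G609G/G609G, against 0.994 to 0.995 within LCS/LCS. The median SD between arrays over genes was 0.11 for G609G/G609G, against 0.06 for LCS/LCS. The design text calls its replicates biological and names no animals, so p-values reflect array-to-array spread that may include technical variation. Precision is limited by having 3 arrays per genotype.

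Lmna, the gene that carries both alleles, was at 7.08, 7.27 and 7.04 in G609G/G609G, against 7.59, 7.49 and 7.64 in LCS/LCS and 7.60 in wt. Its difference was -0.44 as deposited (SE 0.07, adjusted p = 0.00111), 0.09 after quantile normalization (adjusted p = 0.464) and -0.07 after median centring, so no direction was settled. A single signal per gene cannot tell lamin A, lamin C and progerin apart, so these values are no check of the alleles. Of 18 lamina and nuclear envelope genes, 6 fell and 1 rose, against 26.2% and 10.9% of all genes, with a median of -0.44 (0.05 after quantile normalization). Tmem43, an inner nuclear membrane protein, was at 9.31, 9.31 and 9.51 in G609G/G609G, against 11.72, 11.66 and 11.69 in LCS/LCS.

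The enzymes that process prelamin A were partly lower. Fntb, the beta subunit of farnesyltransferase, fell by 1.39 and Zmpste24, the protease that removes the farnesylated tail, by 0.81. After quantile normalization these differences were smaller, at -0.96 for Fntb and -0.34 for Zmpste24. The alpha subunit Fnta (-0.51) and the methyltransferase Icmt (-0.72) were lower as deposited and not called under all 3 scalings. Sun2, which links the lamina to the cytoskeleton, rose by 0.53, and Sun1 was not called as deposited (0.01) and was higher after quantile normalization (0.49). Lbr, the lamin B receptor, was at 7.69, 7.66 and 7.81 in G609G/G609G, against 7.69, 7.64 and 7.62 in LCS/LCS, so the arrays overlapped as deposited.

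Genes of skeletal muscle, epididymis and testis differed between the genotypes, and these hold the largest differences of the contrast. The source of their signal was not tested. All 16 measured genes of fast skeletal muscle fibres rose in G609G/G609G arrays, with a median log2 difference of 5.59 (5.89 after quantile normalization). Atp2a1, the calcium pump of the fast-fibre sarcoplasmic reticulum, was at 12.62, 12.56 and 12.67 in G609G/G609G, against 5.09, 4.98 and 4.80 in LCS/LCS and 4.74 ± 0.03 in wt (mean ± SD, n = 3). The difference was 202-fold (log2 7.66, SE 0.08, limma adjusted p = 2.97e-10). Ckm, muscle creatine kinase, was at 12.19, 12.24 and 12.29 in G609G/G609G, against 6.03, 5.85 and 5.86 in LCS/LCS. Acta1, skeletal alpha-actin, had the smallest difference of the list (2.11), at 12.95, 12.90 and 12.89 in G609G/G609G, against 10.81, 10.78 and 10.81 in LCS/LCS and 9.29 in wt. It was thus also bright in LCS/LCS and wt. The summed signal of the fast fibre list was 15.78, 15.79 and 15.83 (log2) in G609G/G609G, against 11.54, 11.49 and 11.50 in LCS/LCS and 10.64, 10.73 and 10.79 in wt.

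Other muscle genes divided by kind. Of 13 measured slow and cardiac muscle genes, 8 rose and 1 fell. Mybpc1, slow myosin-binding protein C, differed by 4.90 and Mb, myoglobin, by 3.59. Nppa, the atrial natriuretic peptide of heart muscle, was at 4.30, 4.14 and 4.24 in G609G/G609G and at 4.24, 4.33 and 4.30 in LCS/LCS, without a call as deposited. Among 15 myogenic factors, 6 rose, among them Myf6, the regulator kept in mature fibres, by 3.67, and Des, the muscle intermediate filament, by 2.78. The regulators of satellite cells and early muscle formation were not called as deposited: Pax7 differed by -0.23, Myf5 by -0.14, Myog by -0.12 and Myod1 by 0.00. Mstn, the secreted brake on muscle growth, was at 8.85, 8.93 and 9.16 in G609G/G609G, against 3.80, 3.74 and 3.82 in LCS/LCS. Of 15 metabolic genes with muscle isoforms, 9 rose and 1 fell, led by the cytochrome oxidase subunit Cox6a2 at 5.29 and the phosphoglycerate mutase Pgam2 at 4.06.

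Genes of the epididymis went both ways. Of 16 measured, 13 fell and 2 rose in G609G/G609G. Lcn8, an epididymal lipocalin, was at 4.08, 4.03 and 4.13 in G609G/G609G, against 13.20, 13.12 and 13.18 in LCS/LCS and 12.82 ± 0.01 in wt. This difference of 544-fold (log2 -9.09, SE 0.05, adjusted p = 2.24e-11) was the largest of all genes. Gpx5, the epididymal glutathione peroxidase, was at 4.92, 4.98 and 6.31 in G609G/G609G, against 13.50, 13.54 and 13.47 in LCS/LCS. Rnase10 (-7.42), Cst11 (-6.63), Adam28 (-6.51), Lcn9 (-7.73) and Ros1 (-4.53) fell as well and were high in LCS/LCS and wt. Among genes outside the lists, Cstdc2 (-8.82), Lypd8 (-8.32), Ly6g5b (-7.86), Teddm2 (-7.67) and Ly6g5c (-7.42) stood among the 15 largest decreases, and all were also high in wt.

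Spint4, a Kunitz-type protease inhibitor of the epididymis, ran the other way. It was at 12.47, 12.48 and 12.50 in G609G/G609G, against 5.23, 4.15 and 4.67 in LCS/LCS and 12.94 ± 0.03 in wt (log2 difference 7.80, SE 0.22, adjusted p = 5.11e-08). The beta-defensins Defb38 and Defb22 and the whey-acidic-protein family gene Wfdc13 were likewise low in LCS/LCS and high in G609G/G609G and wt, with differences of 6.97, 5.92 and 6.24. Defb38 was higher in G609G/G609G than in wt, by 0.86 (adjusted p = 0.00252). Adam7 and Lcn12 fell but stayed above the array medians. Adam7 was at 11.13, 11.07 and 11.10 in G609G/G609G, against 12.81, 12.86 and 12.82 in LCS/LCS.

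Testis and sperm genes were lowest in LCS/LCS. Of 18 measured, 15 rose in G609G/G609G against LCS/LCS, while as deposited 15 were called higher and 1 lower. Odf1, a protein of the sperm tail, was at 9.60, 9.53 and 9.67 in G609G/G609G, against 5.51, 5.34 and 5.81 in LCS/LCS and 10.23 ± 0.09 in wt. Cyp17a1, a steroid-making enzyme of Leydig cells, was at 7.96, 7.96 and 8.12 in G609G/G609G, against 4.64, 4.62 and 4.89 in LCS/LCS and 8.47 in wt. Prm1, a sperm protamine, was at 9.34, 9.33 and 9.33 in G609G/G609G, against 8.47, 8.66 and 8.79 in LCS/LCS and 11.05 in wt. The order LCS/LCS, then G609G/G609G, then wt held for the means of all 3 genes. Of 11 ovary, uterus and oviduct genes, 3 were called lower as deposited, and 1 higher and 2 lower after quantile normalization, and 7 higher after centring. The Y-linked Kdm5d and Eif2s3y were at 6.92 to 7.18 and 8.76 to 9.05 in G609G/G609G, against 7.78 to 7.93 and 9.23 to 9.26 in LCS/LCS.

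**Figure D2:**
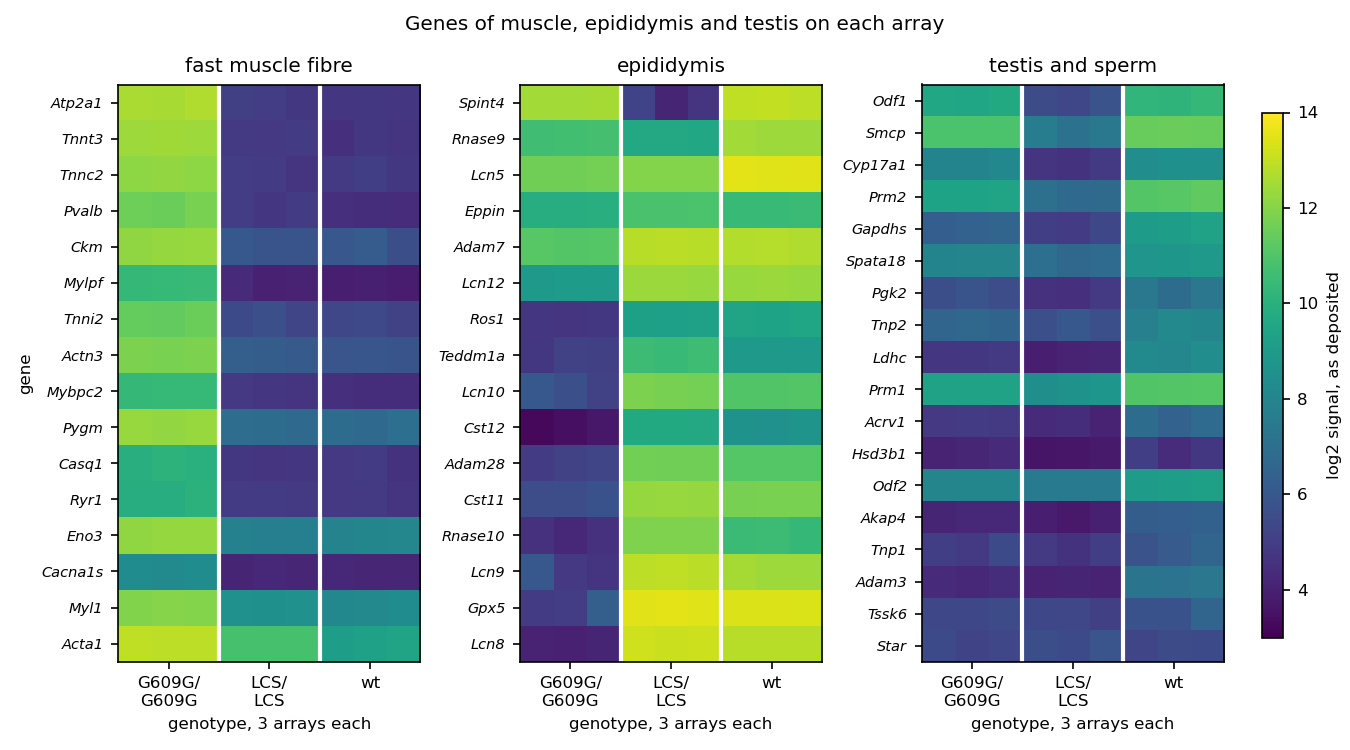
Log2 signal as deposited (colour) of 16 fast muscle fibre, 16 epididymis and 18 testis and sperm genes (rows) on 3 arrays each of G609G/G609G, LCS/LCS and wt (columns), with rows ordered by the difference between G609G/G609G and LCS/LCS. Muscle genes are brighter on the G609G/G609G arrays than on the other arrays, most epididymal genes are dim there, and Spint4 and Odf1 are dim on the LCS/LCS arrays.

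These markers moved with genotype on every array, and their part in the other differences was not tested. Outside the 93 measured genes of the muscle, epididymis and testis lists, 1557 of 14767 genes rose and 3885 fell. The lists hold only part of the genes of those tissues, and Klhl38, Mstn and Defb38, for example, count among the others. In such bulk tissue, fewer cells of a type and less RNA per cell cannot be told apart. No detection calls were used here, so a signal at the low end of the scale cannot be told from background, and a fold against it is that of the measured signals.

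The start regions of 3 genes are shown, since leptin had the largest fall of the adipose lists and Atp2a1 and Mylpf stand for the fast muscle genes. They run from 250 bases before to 50 bases after the start of transcription, from RefSeq on GRCm38.p6, 5′ to 3′ on the gene's strand. Lep lies at chr6:29059971-29060270 on the plus strand, Atp2a1 at chr7:126463024-126463323 on the minus strand and Mylpf, a fast myosin light chain, at chr7:127211358-127211657 on the plus strand. Capitals mark TTGCGCAA, a palindromic form of the motif bound by C/EBP factors, in Lep, and CAGCTG, an E-box form bound by myogenic factors such as MyoD, in the muscle genes.
Lep: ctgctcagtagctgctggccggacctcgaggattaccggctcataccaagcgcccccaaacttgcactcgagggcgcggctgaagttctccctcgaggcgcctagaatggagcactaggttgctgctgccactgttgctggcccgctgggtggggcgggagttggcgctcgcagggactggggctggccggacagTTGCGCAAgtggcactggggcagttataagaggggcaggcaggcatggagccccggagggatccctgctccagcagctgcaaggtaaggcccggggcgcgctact
Atp2a1: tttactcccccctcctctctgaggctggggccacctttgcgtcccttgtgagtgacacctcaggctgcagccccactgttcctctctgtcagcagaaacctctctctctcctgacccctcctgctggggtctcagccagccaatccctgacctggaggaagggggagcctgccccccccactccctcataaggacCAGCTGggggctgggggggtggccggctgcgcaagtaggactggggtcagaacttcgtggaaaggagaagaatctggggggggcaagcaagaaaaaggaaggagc
Mylpf: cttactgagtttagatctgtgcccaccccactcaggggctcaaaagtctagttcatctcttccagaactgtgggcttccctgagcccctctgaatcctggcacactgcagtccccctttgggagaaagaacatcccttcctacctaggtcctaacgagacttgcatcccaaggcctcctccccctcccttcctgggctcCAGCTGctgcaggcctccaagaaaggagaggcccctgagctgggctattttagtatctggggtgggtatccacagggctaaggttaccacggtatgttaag
The leptin match lies 55 bases before the start, and the Lep window also holds CAGCTG, left in lower case, 18 bases after the start. For TTGCGCAA, 0.207% of 27025 genes hold these letters in a window of this kind. CAGCTG lies 55 bases before the Atp2a1 start and 51 before that of Mylpf. TTGCGCAA and CAGCTG read the same on either strand, so 1 search covers both strands. Of the 16 fast fibre genes, 13 had a window and 9 of these (69.2%) held CAGCTG, against 18.3% of all genes. A search for the MEF2 motif, another muscle motif, found it in 1 of the 13 (7.69%), against 3.7% of all genes. Of 13 adipokine genes with a window, 4 (30.8%) held CAGCTG and 1 held TTGCGCAA. Of 12 fat-mass-linked genes with a window, 4 (33.3%) held CAGCTG and 0 held TTGCGCAA. The CAGCTG shares of both lists thus also lay above the 18.3% of all genes. These matches describe the windows and are not sites of measured binding.

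Most genes of adipose hormones fell in G609G/G609G fat, and leptin differed most among them. Of 16 measured adipokines, 10 fell and 3 rose, against 26.2% and 10.9% of all genes, and their median difference was -0.86 (-0.48 after quantile normalization), against -0.26 (0) over all genes. Lep, the satiety hormone secreted in proportion to fat stores, was at 5.16, 5.34 and 5.45 in G609G/G609G, against 12.39, 12.40 and 12.31 in LCS/LCS and 11.25 ± 0.01 in wt. The fall was 133-fold (log2 -7.05, SE 0.08, adjusted p = 4.29e-10, -6.77 after quantile normalization). G609G/G609G lay below wt, and LCS/LCS lay above it. Sfrp5, a secreted Wnt antagonist of adipocytes, was at 5.44, 5.64 and 5.16 in G609G/G609G, against 11.44, 11.33 and 11.41 in LCS/LCS and 9.83 ± 0.18 in wt. It had the same order as leptin, with a 63.1-fold difference between the mutants (log2 -5.98, SE 0.13, adjusted p = 1.39e-08).

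Adiponectin and resistin differed far less than leptin. Adipoq was at 12.29, 12.33 and 12.31 in G609G/G609G, against 13.16, 13.18 and 13.15 in LCS/LCS and 13.13 in wt, a 1.81-fold difference (log2 -0.85, SE 0.05, adjusted p = 2.42e-06). Retn differed by -0.53 on the log2 scale and by -0.29 after quantile normalization. Both genes lie near the top of the array's range. Larger falls were measured for Ccdc80 (-2.73), the neuregulin Nrg4 (-2.58), the lipocalin Lcn2 (-2.00), the retinol carrier Rbp4 (-1.99) and apelin, Apln (-1.84). The adipokines that rose were Nampt, the rate-limiting enzyme of NAD salvage, which is also secreted (1.72), and Agt, angiotensinogen (1.15). The other list member that rose, Cidea (0.67), is a lipid droplet protein and not a secreted hormone. Nampt was at 11.20, 11.19 and 11.20 in G609G/G609G, against 9.51, 9.40 and 9.51 in LCS/LCS.

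Genes known to track fat mass, adipocyte size and caveolae fell together. Of 14 measured, 11 fell and 1 rose, with a median difference of -1.99 (-1.53 after quantile normalization). Npr3, the clearance receptor for natriuretic peptides, was at 7.78, 8.10 and 8.04 in G609G/G609G, against 11.93, 11.97 and 11.98 in LCS/LCS and 11.13 in wt. Sncg, gamma-synuclein, was at 9.0, 9.03 and 9.20 in G609G/G609G, against 12.62, 12.55 and 12.50 in LCS/LCS. Pnpla3, a lipid droplet enzyme, fell by 2.96 and Trp53inp2, an autophagy factor, fell by 2.74. The caveolar coat genes Cav1, Cav2 and Cavin1 had differences of -1.50, -2.10 and -2.03. Cavin2 and Vldlr, the very low density lipoprotein receptor, were not called as deposited, at -0.12 and -0.11, and were called higher after quantile normalization, at 0.31 and 0.34, and after centring. Tbx15, a T-box factor also made in skeletal muscle, was at 7.38, 7.87 and 7.98 in G609G/G609G, against 4.10, 4.01 and 3.75 in LCS/LCS, beside the muscle signal given above.

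**Figure D3:**
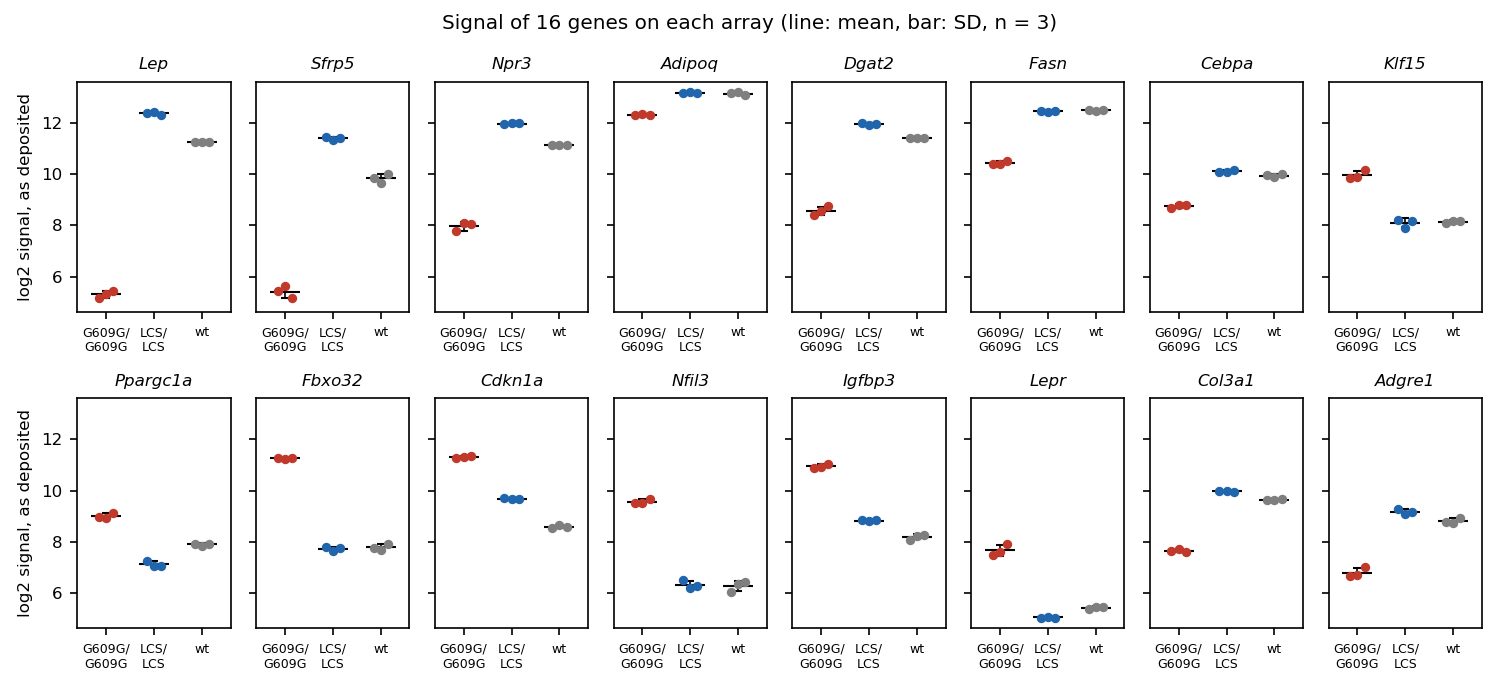
Log2 signal as deposited (vertical axis) of 16 genes on each array of G609G/G609G, LCS/LCS and wt (points), with the mean (line) and SD (bar) of 3 arrays. Lep, Sfrp5 and Npr3 are lowest in G609G/G609G and highest in LCS/LCS, Adipoq differs by 0.85 between the mutants, and Fbxo32, Nfil3 and Lepr lie high in G609G/G609G alone.

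The regulators of adipocyte identity did not move as 1 block. Of 18 measured identity genes, 11 fell and 3 rose, with a median of -0.70 (-0.42 after quantile normalization). Pparg, the nuclear receptor that drives fat cell formation, was at 10.81, 10.83 and 10.89 in G609G/G609G, against 10.82, 10.87 and 10.85 in LCS/LCS. The arrays overlapped as deposited, with a difference of 0.00, while after quantile normalization it was 0.41 (adjusted p = 0.000201), so no direction was settled. Cebpa, its partner, was at 8.67, 8.78 and 8.80 in G609G/G609G, against 10.07, 10.09 and 10.16 in LCS/LCS (log2 difference -1.36, SE 0.06, adjusted p = 4.86e-07). Ebf1 fell by 1.72, whereas Ebf2 (0.09), Rxra (-0.06) and the insulin-responsive glucose transporter Slc2a4 (0.18) were not called under all 3 scalings. Cebpb, an early inducer of adipogenesis, rose by 0.48 and Klf5 by 0.25. Klf15, a Krüppel-like factor induced by fasting and glucocorticoids, rose by 1.85.

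Structural genes of the mature adipocyte fell. The glycerol channel Aqp7 differed by -1.85, the droplet coat Plin1 by -1.77 and glycerol-3-phosphate dehydrogenase, Gpd1, by -1.72. Plin1 was at 10.17, 10.27 and 10.20 in G609G/G609G, against 12.01, 11.98 and 11.95 in LCS/LCS and 11.82 in wt. The fatty acid carriers Fabp4 (-0.94) and Cd36 (-0.76), the lipase Lpl (-0.63) and the droplet protein Cidec (-0.59) moved less. For each of the 11 identity genes that fell, all 3 G609G/G609G arrays lay below all 3 LCS/LCS arrays. As these genes were already called under all 3 scalings, this adds no separate support.

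Transcripts of fat synthesis genes changed in both directions, more of them downwards. Of 24 measured lipogenic genes, 13 fell and 6 rose (median -0.62, and -0.24 after quantile normalization). Dgat2, which makes triglyceride from diacylglycerol, was at 8.42, 8.56 and 8.74 in G609G/G609G, against 11.97, 11.89 and 11.93 in LCS/LCS and 11.39 in wt, a 10.2-fold difference (log2 -3.36, SE 0.08, adjusted p = 1.95e-08). Fasn, fatty acid synthase, was at 10.40, 10.40 and 10.51 in G609G/G609G, against 12.47, 12.43 and 12.45 in LCS/LCS and 12.47 in wt. The fall was 4.04-fold (log2 -2.01, SE 0.05, adjusted p = 2.90e-08), and LCS/LCS differed from wt by -0.02 (adjusted p = 0.843). Mogat1 (-2.38), the acetyl-CoA carboxylase Acaca (-1.93), Elovl6 (-1.34), Pck1 (-1.33), the citrate carrier Slc25a1 (-1.04) and Acly (-0.88) fell as well. Scd1, the main stearoyl-CoA desaturase, was at 13.34, 13.29 and 13.37 in G609G/G609G and at 13.63, 13.62 and 13.66 in LCS/LCS, and its direction turned under median centring (0.07).

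The lipogenic genes that rose included the second carboxylase, Acacb, which is made in muscle and controls fatty acid oxidation (0.85), and Lpin1, the phosphatidate phosphatase (0.91). Lpin1 was at 12.21, 12.22 and 12.25 in G609G/G609G, against 11.33, 11.31 and 11.32 in LCS/LCS. Mlxipl, which encodes the carbohydrate-sensing factor ChREBP, rose by 0.42 while Srebf1, the sterol and insulin-responsive factor, fell by 1.11. Dgat1 rose by 0.31, opposite to Dgat2. Of 13 sterol synthesis genes, 7 fell and 1 rose, the falls led by Nsdhl (-1.70) and the mevalonate kinase Mvk (-1.53), while Cyp51 rose by 0.98.

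More genes of lipolysis and the droplet fell than rose, and receptors that restrain lipolysis were among those that fell. Of 16 measured genes of lipolysis and the droplet, 9 fell and 3 rose. Hcar1, the lactate receptor that suppresses lipolysis, was at 5.89, 4.88 and 4.68 in G609G/G609G, against 9.15, 9.15 and 9.11 in LCS/LCS. Hcar2, the niacin and ketone body receptor, fell by 2.38. G0s2, the inhibitor of adipose triglyceride lipase, fell by 2.21 and the monoglyceride lipase Mgll by 1.84. The lipase itself, Pnpla2, was at 12.64, 12.71 and 12.70 in G609G/G609G and at 12.90, 12.84 and 12.86 in LCS/LCS. Its difference was -0.18 as deposited and 0.09 after quantile normalization, so its direction depended on the scaling. Its co-activator Abhd5 was likewise unsettled, at -0.23 and 0.19. Fitm1, a fat storage protein made chiefly in muscle, rose by 2.87, and the droplet protein Cidea, given above, rose by 0.67.

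Mitochondrial genes gave no common direction. Of 18 fatty acid oxidation genes, 7 fell and 1 rose, with a median of -0.37 as deposited and 0.06 after quantile normalization. Cpt1a, the entry step of mitochondrial oxidation, was at 8.91, 8.78 and 8.95 in G609G/G609G, against 10.63, 10.61 and 10.63 in LCS/LCS. Decr1, Acads, Acaa2 and Cpt2 fell by 1.47, 1.40, 1.20 and 1.16. Ehhadh, an enzyme of peroxisomal oxidation, rose instead, at 10.93, 10.98 and 10.99 in G609G/G609G, against 8.98, 8.92 and 8.93 in LCS/LCS and 8.48 in wt. For 29 respiratory chain subunits, 4 were called higher and 13 lower as deposited, while after quantile normalization 21 were higher and 3 lower. Only 4 rose and 3 fell under all 3 scalings, and the largest of these differences was -1.06, for Ndufa2.

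Of 18 mitochondrial regulators, 3 rose and 2 fell. Ppargc1a, the coactivator PGC-1α, was at 8.99, 8.93 and 9.12 in G609G/G609G, against 7.26, 7.06 and 7.07 in LCS/LCS and 7.90 in wt (log2 difference 1.88, SE 0.08, adjusted p = 2.80e-07). G609G/G609G minus wt was 1.11 and LCS/LCS minus wt was -0.77, so wt stood between the mutants. The kinase subunit Prkaa2 rose by 1.22 and the deacetylase Sirt1 by 0.54. Skeletal muscle also expresses Ppargc1a and Prkaa2, and its markers were higher in the same samples. Brown fat markers were mixed, with 5 of 20 higher and 4 lower. Ucp1, the uncoupling protein, was at 4.31, 4.21 and 4.04 in G609G/G609G, against 4.00, 4.12 and 3.97 in LCS/LCS and 5.63 in wt, with no call between the mutants as deposited (0.16, adjusted p = 0.158). Prdm16, a determinant of brown fat, fell by 1.11, and Gatm and Epsti1 differed by -1.82 and -1.40. Cox8b, a cytochrome oxidase subunit of brown fat and muscle, rose by 2.08. Elovl3 (0.73), Cidea (0.67) and Dio2 (0.40) rose as well. Elovl3 and Dio2 were dim, with means of 4.77 and 4.78 in G609G/G609G.

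Fasting and glucocorticoid-responsive genes were mostly higher in G609G/G609G fat. Of 18 measured, 16 rose and 2 fell, with a median difference of 0.86 (1.17 after quantile normalization). Fbxo32, the ubiquitin ligase atrogin-1, was at 11.25, 11.22 and 11.27 in G609G/G609G, against 7.81, 7.66 and 7.75 in LCS/LCS and 7.80 in wt, an 11.4-fold difference (log2 3.51, SE 0.07, adjusted p = 8.78e-09). Sesn1, a stress-induced inhibitor of growth signalling, differed by 2.27, Gadd45b by 2.20 and Errfi1, a feedback inhibitor of the EGF receptor, by 1.93. Ddit4, an inhibitor of mTORC1, was at 11.20, 11.17 and 11.30 in G609G/G609G, against 9.63, 9.47 and 9.60 in LCS/LCS and 8.66 in wt. Both mutants thus lay above wt for Ddit4, with G609G/G609G further away. Pdk4, which blocks glucose oxidation in fasting, showed the same order, at 12.32, 12.33 and 12.38 in G609G/G609G, against 11.45, 11.45 and 11.45 in LCS/LCS and 10.84 in wt.

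Classical glucocorticoid targets rose by less. Tsc22d3, the leucine zipper GILZ, differed by 0.63, Per1 by 0.89 and Sgk1 by 0.85. The receptor co-chaperone Fkbp5 was at 9.77, 9.83 and 9.92 in G609G/G609G, against 9.63, 9.63 and 9.68 in LCS/LCS and 8.97 in wt. Its difference between the mutants was 0.19 (adjusted p = 0.0341), and the adjusted p was 0.0526 without wt array 2, 0.0676 and 0.0804 without G609G/G609G arrays 2 and 3, and 0.0936 without LCS/LCS array 1. The 2 members that fell were Lcn2 (-2.00) and Angptl4, the fasting-induced inhibitor of lipoprotein lipase (-0.87). Fbxo32, Klf15, Pdk4 and Sesn1 are also muscle genes, and the muscle signal stands beside these values.

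Targets of p53 divided. Among 23 genes of the p53 pathway and of senescence, 6 were higher and 4 lower under all 3 scalings, with a median of -0.05 (0.32 after quantile normalization). Over all genes, 10.9% were higher and 26.2% lower. Trp53inp1, a p53-induced nuclear protein, was at 12.40, 12.38 and 12.47 in G609G/G609G, against 8.94, 8.74 and 8.92 in LCS/LCS and 9.37 in wt, an 11.7-fold difference (log2 3.55, SE 0.07, adjusted p = 6.77e-09). Cdkn1a, the cell cycle inhibitor p21, was at 11.27, 11.30 and 11.35 in G609G/G609G, against 9.72, 9.67 and 9.68 in LCS/LCS and 8.60 in wt (log2 1.62, SE 0.05, adjusted p = 7.37e-08). For Cdkn1a both mutants exceeded wt, by 2.71 in G609G/G609G and by 1.09 in LCS/LCS, and their arrays did not overlap. Eda2r rose by 1.08 and Btg2 by 0.89. Other p53 targets fell, among them Phlda3 (-2.07), Perp (-1.05) and the death receptor Fas (-0.77). Mdm2 (-0.18), Ccng1 (-0.08), Bbc3 (-0.15) and the senescence gene Cdkn2a (0.00) were not called under all 3 scalings.

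Clock genes moved in both directions. Of 14 measured, 7 rose and 3 fell. The activators Arntl and Npas2 rose by 1.15 and 1.98. Npas2 was at 9.67, 9.71 and 9.87 in G609G/G609G, against 7.79, 7.73 and 7.78 in LCS/LCS. Nfil3, a repressor of the D-box, was at 9.53, 9.51 and 9.68 in G609G/G609G, against 6.51, 6.21 and 6.28 in LCS/LCS and 6.28 in wt. The repressors Bhlhe41 and Bhlhe40 fell by 2.24 and 1.28, and Per3 fell by 1.04 while Per1 rose by 0.89. The labels do not give the hour of tissue collection.

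IGF-binding proteins divided, and the leptin and growth hormone receptors differed in opposite directions. Of 22 insulin and IGF genes, 8 fell and 3 rose, against 26.2% and 10.9% of all genes. Igfbp3, an IGF-binding protein, was at 10.88, 10.93 and 11.03 in G609G/G609G, against 8.84, 8.82 and 8.84 in LCS/LCS and 8.20 in wt. It rose while Igfbp5 (-1.48), Igfbp6 (-1.13), Igfbp4 (-0.93), Igfbp2 (-0.80) and Igfbp7 (-0.57) fell. Grb14, an inhibitor of the insulin receptor, fell by 2.06. Insr itself (0.00), Irs1 (0.18) and Akt1 (-0.46) were not called under all 3 scalings. Igf1 was lower as deposited (-0.51, adjusted p = 5.11e-05) and not called after quantile normalization (-0.07, adjusted p = 0.225).

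Lepr, the leptin receptor, was at 7.51, 7.61 and 7.92 in G609G/G609G, against 5.06, 5.08 and 5.05 in LCS/LCS and 5.45 in wt (log2 difference 2.62, SE 0.10, adjusted p = 1.98e-07). Hormone and receptor thus differed in opposite directions between the mutants. A single probe set does not tell receptor isoforms apart. Ghr, the growth hormone receptor, was at 11.09, 11.03 and 11.17 in G609G/G609G, against 12.65, 12.65 and 12.67 in LCS/LCS, while Socs2, a target and inhibitor of its signalling, was at 11.50, 11.55 and 11.61 in G609G/G609G, against 10.07, 9.77 and 10.10 in LCS/LCS. Socs3, induced by leptin and cytokines, fell by 1.16 and Stat5a by 1.02. Of 11 growth hormone and leptin signalling genes, 2 rose and 3 fell, against 10.9% and 26.2% of all genes.

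Matrix genes were mostly lower in G609G/G609G fat. Of 33 collagen and matrix genes, 25 fell and 2 rose, with a median difference of -1.62 (-1.14 after quantile normalization). Col15a1, a basement membrane collagen, was at 6.48, 6.34 and 6.01 in G609G/G609G, against 10.19, 10.15 and 10.15 in LCS/LCS and 9.47 in wt. The collagen VI chains Col6a1, Col6a2 and Col6a3, which surround adipocytes, differed by -2.46, -2.71 and -2.49. The fibrillar collagens Col3a1 and Col1a1 fell by 2.30 and 1.85. Col3a1 was at 7.64, 7.72 and 7.62 in G609G/G609G, against 9.97, 9.98 and 9.94 in LCS/LCS and 9.65 in wt. For these collagens the LCS/LCS mean lay above wt and the G609G/G609G mean below it. The cross-linking enzymes Loxl1 and Loxl2 fell by 2.57 and 2.01, and fibronectin, Fn1, by 2.00.

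Some abundant matrix genes overlapped between the genotypes as deposited. Dcn, decorin, was at 13.25, 13.24 and 13.24 in G609G/G609G, against 13.22, 13.24 and 13.24 in LCS/LCS, at the top of the range. The proteases Mmp2 (0.12) and Mmp14 (-0.01) and the matrix protein Fbln1 (-0.12) were not called under all 3 scalings. Adamts1 rose by 0.50 and Ccn2, connective tissue growth factor, by 0.16.

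Markers of progenitors and fibroblasts fell in 14 of 15 cases, with a median of -1.45 (-0.91 after quantile normalization). Cd248, endosialin, was at 6.10, 6.11 and 5.95 in G609G/G609G, against 9.10, 9.06 and 9.13 in LCS/LCS and 8.62 in wt. Mfap5, Thy1 and Dpt fell by 2.11, 2.00 and 2.00, and the progenitor receptor Pdgfra by 0.91. Dlk1, the preadipocyte factor, was lower as deposited (-0.30, adjusted p = 0.0213) and was not called after quantile normalization (0.18, adjusted p = 0.224). Col15a1 belongs to this list and to the matrix list.

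Wnt and TGF-beta genes that changed were mostly lower. Of 26 Wnt genes, 12 fell and 1 rose. Sfrp4, a secreted antagonist, was at 5.21, 5.20 and 5.38 in G609G/G609G, against 8.27, 8.13 and 8.22 in LCS/LCS and 7.36 in wt. The receptors Fzd4 (-1.39), Fzd1 (-1.15) and Lrp6 (-1.18), the factor Lef1 (-1.48) and the target Ccnd1 (-1.74) fell. Beta-catenin, Ctnnb1, differed by -0.52 as deposited and by -0.07 after quantile normalization, without a call under all 3 scalings. Of 22 TGF-beta and BMP genes, 12 fell and 2 rose, the falls led by Bmp7 (-2.36), Fstl3 (-1.99), Bmp3 (-1.91) and the ligand Tgfb1 (-1.62). Mstn, given above with the muscle genes, and the co-receptor Tgfbr3 (0.53) were the 2 that rose.

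Macrophage markers were lower in G609G/G609G. Of 17 measured, 13 fell, with a median of -1.37 (-0.89 after quantile normalization), while 2 were called higher after quantile normalization and 1 after centring. Adgre1, the F4/80 antigen, was at 6.69, 6.71 and 7.02 in G609G/G609G, against 9.27, 9.07 and 9.18 in LCS/LCS and 8.81 in wt (log2 difference -2.37, SE 0.10, adjusted p = 4.81e-07). Ccr2, the receptor that brings monocytes into tissue, fell by 2.77, Csf1r by 1.74, Cd68 by 1.70 and the ligand Ccl2 by 1.26. Mertk (-0.12) and Cd14 (-0.30) were not called under all 3 scalings. Of 5 class II antigen presentation genes, 4 fell, from H2-DMa at -1.85 to H2-Aa at -1.09.

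Other immune lists moved less. Of 12 lymphocyte genes, 2 fell, the B-cell receptor chains Cd79b (-1.45) and Cd79a (-0.97), and the T-cell gene Cd3e was lower as deposited (-0.32) and not called after quantile normalization (0.19). Of 13 neutrophil and mast cell genes, 3 rose and 2 fell, with Ltf, lactotransferrin, at 7.60, 7.44 and 7.67 in G609G/G609G, against 5.86, 5.77 and 5.82 in LCS/LCS and 7.30 in wt. Of 17 interferon-response genes, 7 fell and 1 rose, led by Gbp2 (-1.70) and Ddx58, the RNA sensor RIG-I (-1.60). Ifit1 varied among the G609G/G609G arrays, at 6.76, 5.63 and 6.12, and was not called under all 3 scalings.

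Vessel genes were near the shift of all genes. Of 19 endothelial genes, 5 fell and 2 rose under all 3 scalings, close to the 26.2% and 10.9% of all genes, and their median was -0.23. Pecam1, the CD31 antigen, was at 10.02, 10.08 and 10.12 in G609G/G609G, against 10.00, 9.97 and 9.98 in LCS/LCS. Pecam1, Kdr (-0.19) and Vwf (0.03) were not called in 1 direction under all 3 scalings. Aplnr, the apelin receptor, fell by 2.07. Among 13 smooth muscle and pericyte genes, 5 rose and 3 fell. The contractile genes Cnn1 (1.82), Myh11 (1.33) and Tagln (0.91) rose, and the pericyte genes Mcam (-2.06) and Cspg4 (-1.08) fell. Cnn1 was at 9.51, 9.49 and 9.63 in G609G/G609G, against 7.72, 7.62 and 7.84 in LCS/LCS and 8.65 in wt, so wt stood between the mutants. Of 9 mesothelial genes, which line the surface of the fat pad, 5 fell, among them Upk1b (-2.05) and Msln (-1.79). Of 9 nerve genes, 2 fell, near the 26.2% of all genes. Of 11 genes of liver and plasma proteins, 5 fell, among them Hp, haptoglobin (-1.69). Of 9 genes of kidney and other epithelia, the chemokine Cxcl13 rose by 0.74, and of 4 blood and sex chromosome genes, 1 fell.

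Genes of the secretory pathway, of the cell cycle and of proteolysis were also read. Of 22 endoplasmic reticulum genes, 12 fell and 5 rose. The chaperones and folding enzymes Sdf2l1 (-2.01), Pdia4 (-1.54) and Hsp90b1 (-1.07) fell, while Atf4, the central factor of the integrated stress response, rose by 0.73 and its target Trib3 by 0.52. Atf4 was at 10.22, 10.18 and 10.29 in G609G/G609G, against 9.53, 9.51 and 9.45 in LCS/LCS. Of 25 cell cycle genes, 9 fell, against 26.2% of all genes, led by Ccna2 (-1.57) and E2f1 (-1.48). In this list, 2 were called higher after quantile normalization and 6 after centring. Of 22 autophagy and proteolysis genes, 8 rose and 6 fell. Klhl38, a gene of skeletal muscle, rose by 5.72 and the kinase Ulk1 by 0.86, while the lysosomal protease Ctsd fell by 1.46.

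**Figure D4:**
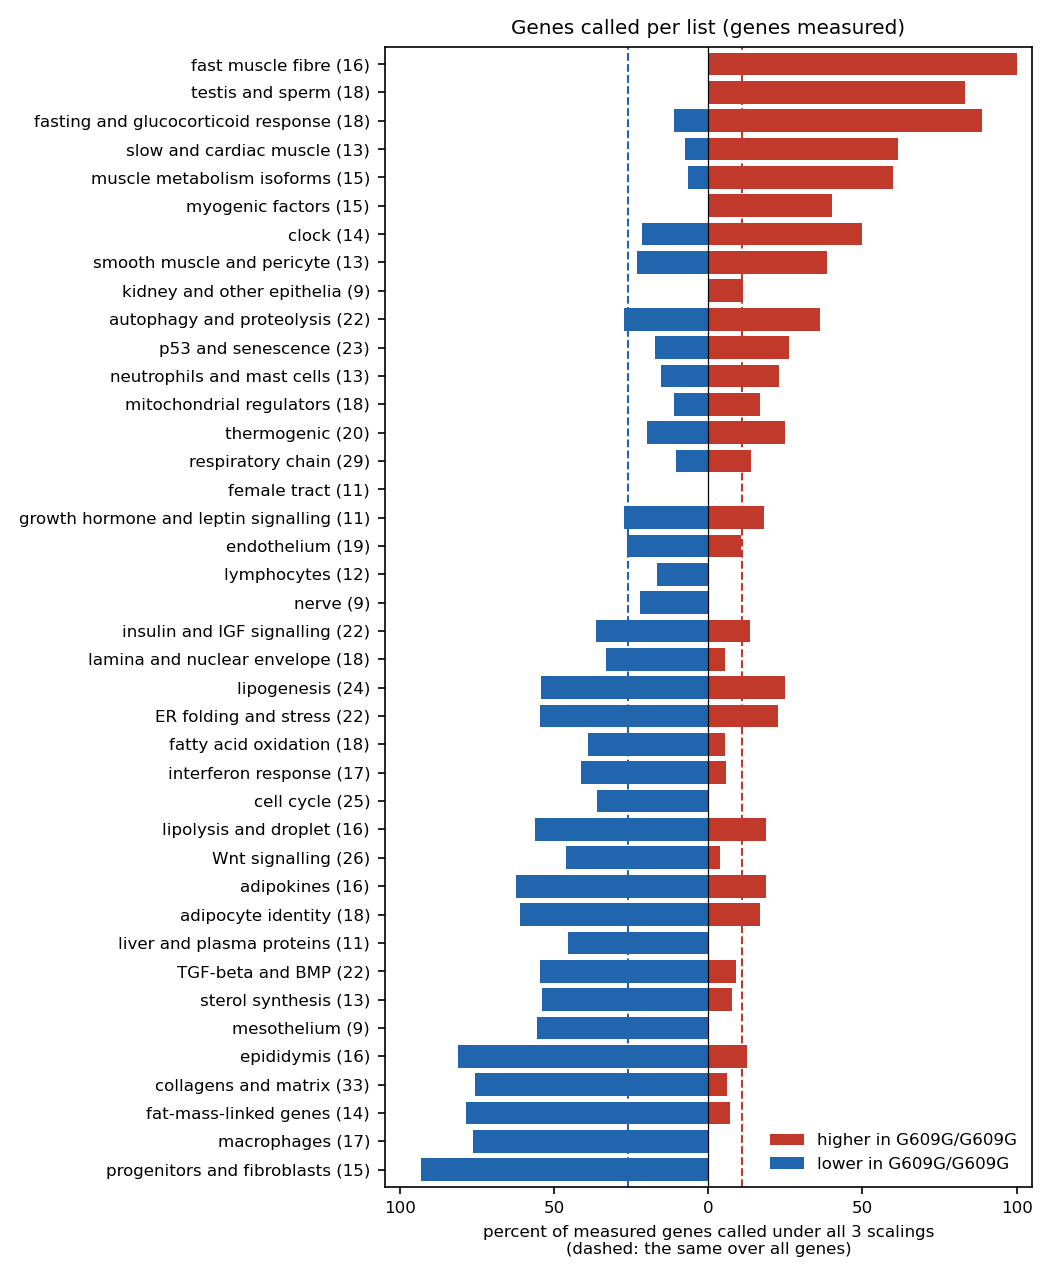
Percent of the measured genes of each list (number in brackets) called higher (red, right) or lower (blue, left) in G609G/G609G than in LCS/LCS under all 3 scalings, for the 40 lists with at least 9 measured genes. Dashed lines mark the same percents over all genes, 10.9% higher and 26.2% lower. Fast muscle, testis and fasting genes stand at the top of the plot, and progenitor, macrophage and fat-mass genes at the bottom.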

How the data were processed

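The deposited table, 1 column per array, holds values read as log2 signal per probe set, since their range could not come from a linear or a base 10 log scale of a 16-bit scanner. The authors' background correction, probe summary and scaling are not stated in the labels, and the deposited arrays were not quantile normalized, since their medians differ. The build mm9 is named in the submitters' processing notes. The series' design text describes 10 samples, of which 9 were analysed here, and names an unpaired t-test with fold and p thresholds.

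Sample titles gave the groups, and gene names came from the platform annotation: 14996 of 23332 probe sets had 1 symbol, 1019 had several and 7317 were not listed there. Each gene was read from its brightest probe set over the 9 arrays, since 135 genes had more than 1. The test was limma 3.58.1 in R 4.3.3, where 1 model of the 9 arrays held a mean for each genotype (6 residual degrees of freedom, moderated by eBayes). Tests were two-sided, with Benjamini-Hochberg adjusted p-values across all 23332 probe sets. The model was fitted to 3 scalings: deposited values, quantile-normalized values and values centred on each array's median. The code was tested on simulated data. Alternatives were other variance settings, a filter on dim probe sets, only the 6 mutant arrays, a replicate block, leaving out each array and the methods' t-test.

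The contrast, the 42 gene lists and the naming rule were chosen with earlier results of these data known. The rule took the 15 largest called changes each way, with and without the muscle, epididymis and testis lists, up to 4 members per list, list members described for their role and a fixed set of genes. Figures were drawn with matplotlib 3.10.9 in Python 3.11.15. Promoter windows came from RefSeq on GRCm38.p6.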

Additional observations from a re-analysis of the deposited data

Results flagged for a closer look

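Of 28 genes checked for this, 7 met a rule applied under all 3 scalings. Each mutant had to be called against wt, the 2 mutants in opposite directions. The difference between the mutants had to be called as well. Calls needed a limma adjusted p of 0.05 or less. Lcn8 differed by -9.09 between the mutants, with G609G/G609G minus wt at -8.74 and LCS/LCS minus wt at 0.34. Lep differed by -7.05 (G609G/G609G minus wt -5.93, LCS/LCS minus wt 1.12) and Dgat2 by -3.36 (-2.82 and 0.54, in the same order). The macrophage gene Adgre1 differed by -2.37 (-2.00 and 0.36). Its call for LCS/LCS against wt was borderline as deposited (limma adjusted p = 0.0495). The collagen genes Col3a1 and Col1a1 differed by -2.30 (-1.99 and 0.31) and -1.85 (-1.61 and 0.24). Ppargc1a was the 1 gene of these that was higher in G609G/G609G, by 1.88, with G609G/G609G minus wt at 1.11 and LCS/LCS minus wt at -0.77. Genes outside the 28 were not checked this way, and the report gives others with wt between the mutants, such as Sfrp5, Npr3, Col15a1 and Cnn1. Both comparisons with wt share the wt arrays.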

How the results depend on the processing

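Of 285 named genes, 277 kept their direction and their side of the threshold under every one of the 17 alternative settings that gave a value for them. Most were named because they were called under all 3 scalings, which held for 278 of them. Quantile normalization and median centring are among the settings, so this stability was largely set by the choice of genes. The split of called probe sets depended on the scaling: 2400 were higher and 9747 lower as deposited (19.8% of calls higher), 5758 higher and 5661 lower with quantile normalization (50.4%), and 8994 higher and 5583 lower with median centring (61.7%). Adding a minimum fold of 1.5 left 7184 calls, 1253 higher and 5931 lower, since small changes then drop out. The methods' t-test with that fold called 6933 (1141 and 5792) unadjusted and 6511 (991 and 5520) after Benjamini-Hochberg adjustment. Leaving out 1 array at a time gave 10747 to 12202 calls, with 1984 to 2432 higher and 8756 to 9943 lower. The replicate block gave 12247 calls (2422 and 9825). The replicate numbers are not treated as pairs, because deviations of same-numbered G609G/G609G and LCS/LCS arrays correlated at -0.0684, 0.0754 and 0.0659, and not every array correlated best with its own number. Directions that turned, cause not tested: Lmna, 0.09 after quantile normalization. Pparg was at 0.41 after quantile normalization, 0.37 after centring, and -0.03 to 0.01 without 1 array. Scd1 was at 0.07 after centring, and Pnpla2 at 0.09 after quantile normalization and 0.19 after centring. Calls of Fkbp5, Igf1, Slc2a4 and Ucp1 also changed with a setting. Of 84 counts of list members called higher or lower, 39 moved by over 1.5 times with quantile normalization and 46 with centring. Without detection calls, signal over background limits the reading of dim probe sets.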

Other observations

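The genes described here lie outside the lists and were chosen after their values were seen. Nr4a3, an immediate-early nuclear receptor, was at 10.44, 10.31 and 10.31 in G609G/G609G, against 6.31, 6.51 and 6.44 in LCS/LCS and 6.29 in wt. Ptgs2, the inducible cyclooxygenase, was at 10.72, 10.69 and 10.77 in G609G/G609G, against 7.02, 6.95 and 6.96 in LCS/LCS and 8.74 in wt. Scd3, a stearoyl-CoA desaturase, was at 9.99, 9.98 and 9.93 in G609G/G609G, against 6.28, 6.15 and 6.34 in LCS/LCS and 7.58 in wt. Its paralog Scd1 differed by -0.30, and probes for near-identical copies may share signal. Apoc3, an apolipoprotein of triglyceride-rich particles, rose by 3.66, the cytochrome P450 gene Cyp2b10 by 3.62, Hpd, an enzyme of tyrosine breakdown, by 3.51, the zinc carrier Slc39a14 by 3.27, Gadd45g by 3.06 and the phosphodiesterase Pde4d by 2.99.

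Among genes that fell, Vnn1, a pantetheinase, was at 5.91, 5.86 and 6.23 in G609G/G609G, against 10.05, 10.02 and 10.06 in LCS/LCS and 9.25 in wt. Igfals, which stabilises IGF complexes in blood, was at 4.43, 4.32 and 4.39 in G609G/G609G, against 8.41, 8.29 and 8.44 in LCS/LCS and 6.96 in wt. The acute-phase protein Orm1 (-3.85), the peroxisomal transporter Abcd2 (-3.82), the transcription factors Egr2 (-3.80) and Etv5 (-3.74) and the oxytocin receptor Oxtr (-3.76) fell as well, and each was higher in LCS/LCS than in wt by its mean.

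Genes with the order of Spint4, low in LCS/LCS and high in G609G/G609G and wt, were also found outside the lists. Npy, neuropeptide Y, was at 10.56, 10.64 and 10.56 in G609G/G609G, against 6.85, 5.83 and 6.25 in LCS/LCS and 10.19 in wt. Wfdc16 (4.36), Defb37 (4.06) and Crisp2 (3.11) were likewise lowest in LCS/LCS. Crisp2 was at a mean of 8.13 in G609G/G609G, against 5.03 in LCS/LCS and 10.36 in wt, so G609G/G609G lay between the 2.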
